A study of Homo sapiens with 8 samples.

Results

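The mitosis and G2/M genes described here are 45 genes that encode the G2/M cyclins, the mitotic kinases, kinetochore, spindle and cytokinesis proteins and their regulators. They were taken by symbol from the 38637 genes of the deposited table, in which every one of the 45 was found. RNA-seq was performed on SW1990, an established human pancreatic adenocarcinoma cell line, to profile transcription after overexpression of EBF2, a DNA-binding transcription factor, or after GSK-LSD1, an inhibitor of the histone demethylase KDM1A (LSD1). Vector cells carried the empty vector, EBF2-OE cells overexpressed EBF2, Vehicle cells received the vehicle, and GSK-LSD1 cells received the compound, at 2000 µM according to the sample titles. That dose lies above those the study's text gives for other assays of this line, and no dose for RNA-seq is given in the sources used here, so the unit in the titles could not be checked. Each group holds 2 libraries, which the labels number 2 and 3 for Vector and EBF2-OE and 1 and 2 for Vehicle and GSK-LSD1. The labels do not say whether the libraries came from separate cultures, so the p-values measure only the spread between these libraries, which may be technical. The duration of treatment and the promoter that drives EBF2 are not given in the sources used here.

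Entry into mitosis is driven by CDK1 bound to cyclin B, which WEE1 holds inactive by phosphorylation and CDC25 phosphatases release. Aurora and Polo-like kinases then build the spindle, kinetochores attach chromosomes to it, the spindle checkpoint holds the anaphase-promoting complex (APC/C) in check until every chromosome is attached, and kinesins and cytokinesis factors separate the daughter cells. Most of these genes are transcribed late in the cell cycle under MYBL2, FOXM1 and the MuvB core, of which LIN9 is a subunit, and their RNA is low in cells that have left the cycle.

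Depth ranged from 20453362 to 27054876 gene counts a library, of which the 45 genes took between 0.525% and 0.635%. The overexpressed gene, EBF2, was counted 28 times in either Vector library, 5818 times in EBF2-OE 2 and 90100 times in EBF2-OE 3, so the EBF2-OE libraries differed widely from each other in it. Of 7 epithelial markers, KRT8, KRT18, KRT7 and MUC1 were high, while EPCAM, CDH1 and KRT19 were at or below 1.57 TPM (a count scaled by gene length and library size) in every library, so that these defining epithelial markers were absent or nearly so. Of 8 stromal, endothelial and immune markers, only the lymphocyte marker CD3E was at 0 counts in all 8 libraries. COL1A1 ranged from 30.5 to 45.2 TPM, CD68 from 10.9 to 30.9 TPM and PDGFRB from 5.36 to 16.8 TPM. COL3A1 and CDH5 were at or below 4.34 TPM in every library, and PECAM1 and PTPRC at or below 0.228 TPM. RPPH1, an RNA without a poly(A) tail, had 1805 counts in GSK-LSD1 1 and between 5 and 17 in the other 7 libraries, and the 6 non-polyadenylated RNAs examined took 0.200% of the counts of GSK-LSD1 1 against 0.0185% to 0.0573% elsewhere.

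The cell cycle homology region (CHR) is the promoter element through which MuvB complexes act on these genes, and a CCAAT box, bound by NF-Y, often lies upstream of it. RefSeq promoter windows (GRCh38.p14, 250 bases before to 50 after the transcription start) were given for 38 of the 45 genes, the others being TPX2, BIRC5, WEE1, FOXM1, TTK, UBE2C and AURKA. The letters TTTGAA, searched on both strands, were found in windows of 27 of the 38 genes (71.1%) and of 18.2% of all 27305 genes with a window. The match lay wholly within the 50 bases before the start in 14 of the 38 (36.8%) and in 2.88% of all genes. Of its variants, TTCGAA was found in 4 of the 38 (1.82% of all genes), the form CTTGAA in 4 (13.4% of all genes) and the form TTTAAA in 14 (14.5% of all genes). CCAAT was present in 30 of the 38 (78.9%) against 39.7% of all genes. AURKB, MYBL2 and NEK2 held none of the 4 CHR forms in their windows. The 100 bases before the start are shown for 8 genes, of which 7 were chosen from the genes that were lower with GSK-LSD1 and CCNB2 as a cyclin B gene with a CHR, written 5′ to 3′ in lower case with CHR forms and CCAAT boxes, on either strand, in capitals. They are PLK1 (chr16:23678789-23678888, plus strand), CDC20 (chr1:43358881-43358980, plus strand), CENPA (chr2:26785956-26786055, plus strand), MKI67 (chr10:128126424-128126523, minus strand), KIF11 (chr10:92593030-92593129, plus strand), CCNB2 (chr15:59105046-59105145, plus strand), KIF20A (chr5:138179012-138179111, plus strand) and CCNA2 (chr4:121823884-121823983, minus strand).
PLK1: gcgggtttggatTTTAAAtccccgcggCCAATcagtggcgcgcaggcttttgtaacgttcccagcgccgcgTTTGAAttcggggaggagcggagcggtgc
CDC20: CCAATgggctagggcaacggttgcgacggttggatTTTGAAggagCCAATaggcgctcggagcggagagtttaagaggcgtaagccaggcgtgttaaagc
CENPA: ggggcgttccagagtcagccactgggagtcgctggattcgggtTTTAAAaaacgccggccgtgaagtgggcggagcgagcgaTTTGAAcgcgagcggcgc
MKI67: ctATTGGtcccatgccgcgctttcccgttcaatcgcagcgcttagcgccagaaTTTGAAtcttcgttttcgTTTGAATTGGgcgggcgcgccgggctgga
KIF11: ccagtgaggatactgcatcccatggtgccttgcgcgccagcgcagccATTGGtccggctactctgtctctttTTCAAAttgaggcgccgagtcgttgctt
CCNB2: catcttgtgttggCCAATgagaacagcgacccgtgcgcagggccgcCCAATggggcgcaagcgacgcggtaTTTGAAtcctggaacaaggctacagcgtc
KIF20A: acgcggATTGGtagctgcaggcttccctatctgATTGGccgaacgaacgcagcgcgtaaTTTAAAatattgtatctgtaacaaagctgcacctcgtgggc
CCNA2: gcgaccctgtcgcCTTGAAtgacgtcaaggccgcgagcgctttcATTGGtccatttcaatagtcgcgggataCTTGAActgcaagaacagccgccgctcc
In PLK1, CCNB2 and MKI67 a TTTGAA begins 29 bases before the start, and MKI67 holds another 47 bases before it. In CENPA the match lies 18 and in CDC20 65 bases before the start, and KIF11 carries it on the opposite strand, 28 bases before. KIF20A has TTTAAA 41 bases and CCNA2 has CTTGAA 28 bases before the start in place of TTTGAA. AURKB, NEK2 and CDC25B, also lower with GSK-LSD1 and with a window, are not shown, and none of them holds TTTGAA there.

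**Figure D1:**
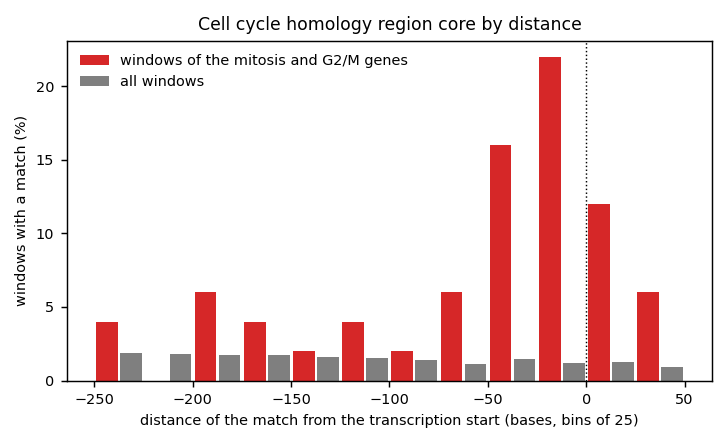
Share of promoter windows (%) with TTTGAA on either strand, in bins of 25 bases of distance from the transcription start, for the 50 windows of the mitosis and G2/M genes (red) and for all 35116 windows (grey). In the 25 bases before the start, 22.0% of the red and 1.17% of the grey windows hold a match.

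All 45 genes passed the low-count filter in every comparison, with 260 to 15392 counts per gene and library. By mean TPM over the 8 libraries, MYBL2, a transcription factor that joins the MuvB core, stood highest at 476 (range 382 to 579), above every library of the gene that followed, PRC1, which bundles the microtubules of the central spindle, at 276 (range 243 to 313). CCNB1, the main mitotic cyclin, stood at 259 (range 221 to 322) and TPX2, the activator of Aurora A on the spindle, at 248 (range 226 to 278), so PRC1, CCNB1 and TPX2 overlapped between libraries. CDC20, TOP2A, PLK1, UBE2C and PTTG1 followed, between 217 and 152 TPM. LIN9 was lowest at 8.23 (range 6.90 to 9.31), below CENPE at 12.8 (range 4.83 to 17.8), whose lowest library lay under every LIN9 value.

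The libraries of a group did not vary alike. Each gene was set against its own mean over the 8 libraries on the log2 CPM scale, CPM being the count scaled to the size of its library, here over all 8 libraries together. The median of the 45 genes was -0.033 in Vector 2, 0.12 in Vector 3, 0.14 in EBF2-OE 2, -0.20 in EBF2-OE 3, 0.054 in Vehicle 1, 0.085 in Vehicle 2, -0.035 in GSK-LSD1 1 and -0.11 in GSK-LSD1 2. Thus EBF2-OE 3 was the low library, with the lowest value of the 8 for 24 of the 45 genes, and EBF2-OE 2, of the same group, was the high one, with the highest value for 17. Between those libraries 42 of the 45 genes were lower in EBF2-OE 3, with a median difference of -0.33 on the log2 scale. Between the Vehicle libraries the median difference was 0.037 and between the GSK-LSD1 libraries -0.056. Other genes also differed between libraries of a group. The median absolute log2 difference between the EBF2-OE libraries was 0.33 for the 45 and 0.25 for all genes. Between the Vector libraries it was 0.18 and 0.22. Shares of all genes that were lower, lowest or highest in a library are not given here, so those counts are not read as particular to the 45.

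**Figure D2:**
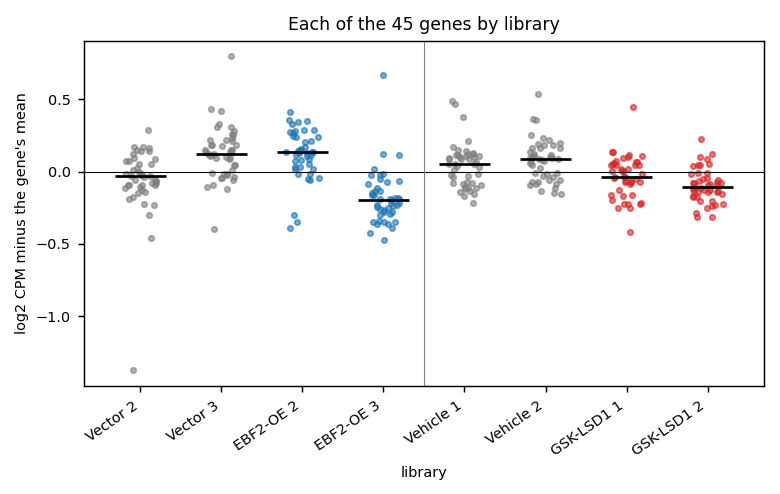
Log2 CPM of each of the 45 genes minus that gene's mean over the 8 libraries (points), with the median of the 45 as a black bar, for the 8 libraries (grey, Vector and Vehicle; blue, EBF2-OE; red, GSK-LSD1). EBF2-OE 2 and EBF2-OE 3 lie on opposite sides of 0, at medians of 0.14 and -0.20, and both GSK-LSD1 medians lie below both Vehicle medians.

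Among single genes, WEE1 and CENPE stood apart. WEE1, the kinase that inhibits CDK1, had 54.1 and 128 CPM in Vector 2 and 3 and 56.4 and 119 CPM in EBF2-OE 2 and 3, so library 3 lay above library 2 in both groups, by 2.39-fold in Vector and 2.08-fold in EBF2-OE when all 8 libraries were scaled together. CENPE, a kinesin that carries chromosomes along the spindle, had 15.2 and 39.3 CPM in Vector 2 and 3 and 31.7 and 38.9 CPM in EBF2-OE 2 and 3, a 2.62-fold gap between the Vector libraries on the same scale. No gene of the 45 differed by more than 1.21-fold between the Vehicle libraries or between the GSK-LSD1 libraries. The heatmap of all genes by library shows these rows beside the rest.

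**Figure D3:**
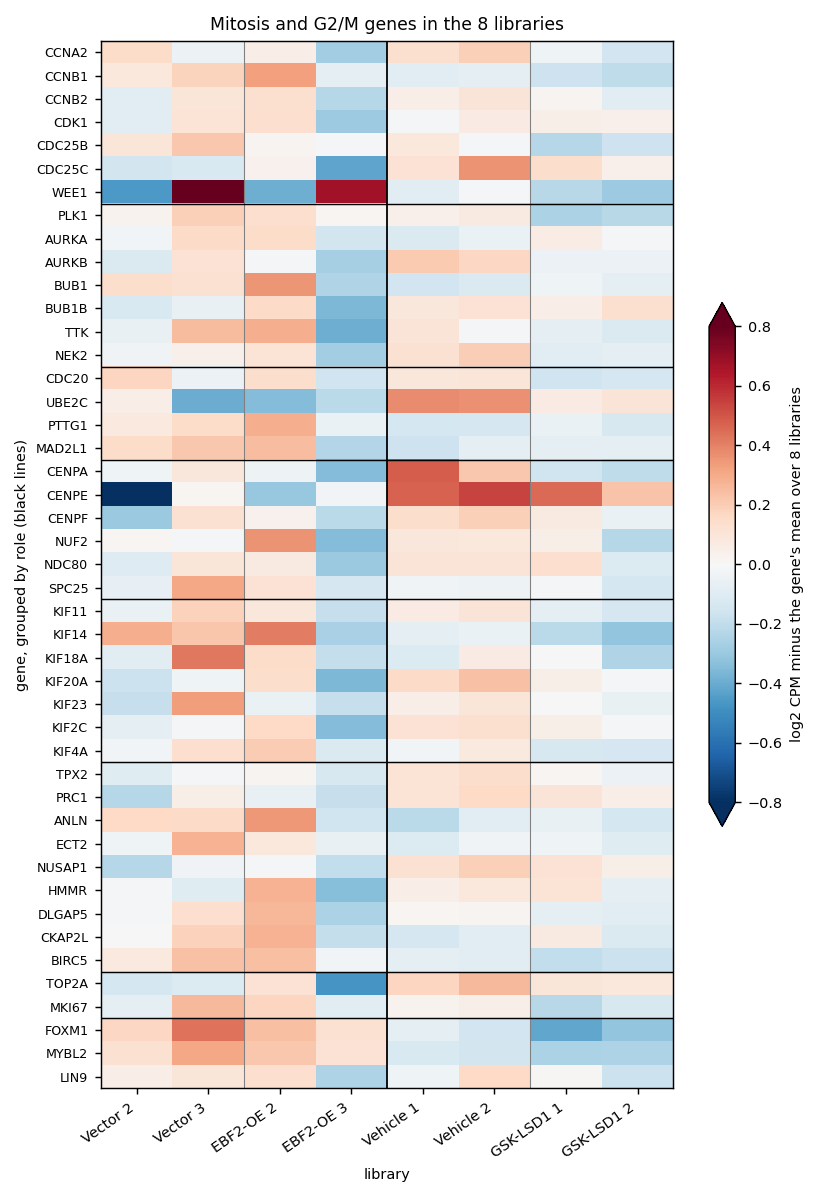
Log2 CPM of the 45 genes (rows, grouped by role) minus the gene's mean over the 8 libraries (columns), red above and blue below the mean, with the colour scale ending at 0.8. The column of EBF2-OE 3 is blue for 41 of the 45 genes, WEE1 being its strongest red row, and CENPE is deep blue in Vector 2.

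GSK-LSD1 was set against Vehicle to ask how the LSD1 inhibitor moved these genes. No gene of the 45 passed a fold change above 1.5 with an edgeR adjusted p under 0.05, in either direction, whereas 2.53% of the 16059 genes tested were called higher and 2.04% lower by that rule. DESeq2 also called 0 of the 45, and 0 passed the fold limit with an unadjusted p under 0.05. By the adjusted p alone, 13 of the 45 fell (28.9%) and 0 rose, against 8.87% of all genes tested that were lower and 9.86% that were higher, so the changes that passed were small and lay on one side. The log2 fold change was below 0 for 38 of the 45 (84.4%) and for 51.0% of all genes, with medians of -0.13 and -0.0059. Both GSK-LSD1 libraries lay below both Vehicle libraries for 30 of the 45 (66.7%; 30.2% of all genes) and above them for 3 (6.67%; 30.0% of all genes). Whether fewer cells were in mitosis or each cell held less of these RNAs cannot be told apart in bulk RNA. At an unadjusted p under 0.05, 21 of the 45 were lower and 0 higher. By that rule 5247 of the 16059 genes tested passed, in either direction.

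The genes are given by role below, where fell means lower by the adjusted p alone, as 8.87% of all genes tested were. Each role holds few genes, so nothing is read from the count of a single role. Of the 7 genes of the CDK1 switch, 3 fell. CCNA2, the cyclin of S phase and G2, had 82.9 and 86.7 CPM in Vehicle 1 and 2 and 73.9 and 68.2 CPM in GSK-LSD1 1 and 2, with a log2 fold change of -0.26 ± 0.062 (SE, edgeR adjusted p = 0.0162). CDC25B, the phosphatase that begins CDK1 activation at the centrosome, had 176 and 166 CPM in Vehicle 1 and 2 and 142 and 148 CPM in GSK-LSD1 1 and 2, with a log2 fold change of -0.24 ± 0.054 (SE, edgeR adjusted p = 0.0115). WEE1, which acts against it, had 71.0 and 75.1 CPM in Vehicle 1 and 2 and 64.6 and 61.8 CPM in GSK-LSD1 1 and 2, with a log2 fold change of -0.21 ± 0.061 (SE, edgeR adjusted p = 0.0378). In these 3 genes the groups did not overlap. WEE1 did not pass with DESeq2 (adjusted p = 0.114) or with the replicate number as a block (edgeR adjusted p = 0.0579). CDK1 itself had 157 and 167 CPM in Vehicle 1 and 2 and 164 and 164 CPM in GSK-LSD1 1 and 2, with a log2 fold change of 0.014 ± 0.051 (95% interval -0.10 to 0.13), and its libraries overlapped. Its partner CCNB1 had 190 and 192 CPM in Vehicle 1 and 2 and 179 and 175 CPM in GSK-LSD1 1 and 2, without overlap, but did not pass the test (-0.11 ± 0.049, edgeR adjusted p = 0.147). CDC25C, a further CDK1 phosphatase, had 21.8 and 25.9 CPM in Vehicle 1 and 2 and 22.1 and 20.7 CPM in GSK-LSD1 1 and 2, with overlap, and a log2 fold change of -0.16 ± 0.10. CCNB2 stood at -0.11 ± 0.064.

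Of the 7 mitotic kinases, 3 fell (8.87% of all genes tested). PLK1, the Polo-like kinase that drives mitotic entry and centrosome maturation, had 175 and 180 CPM in Vehicle 1 and 2 and 143 and 146 CPM in GSK-LSD1 1 and 2, with a log2 fold change of -0.30 ± 0.049 (SE, edgeR adjusted p = 0.00234), the smallest adjusted p of the 45. It fell by 18.6%, a gap wider than that between libraries of either group. AURKB, the kinase of the chromosomal passenger complex, had 94.7 and 92.2 CPM in Vehicle 1 and 2 and 79.3 and 79.2 CPM in GSK-LSD1 1 and 2, with a log2 fold change of -0.24 ± 0.054 (SE, edgeR adjusted p = 0.0125). NEK2, which splits the centrosomes, had 63.1 and 66.9 CPM in Vehicle 1 and 2 and 54.7 and 55.0 CPM in GSK-LSD1 1 and 2, with a log2 fold change of -0.25 ± 0.062 (SE, edgeR adjusted p = 0.0195). AURKA, the Aurora kinase of the spindle poles, lay on the other side, at 103 and 108 CPM in Vehicle 1 and 2 and 116 and 110 CPM in GSK-LSD1 1 and 2 and a log2 fold change of 0.10 ± 0.054 that did not pass (edgeR adjusted p = 0.212) and was the largest value of the 45. BUB1, a checkpoint kinase at the kinetochore, had 104 and 107 CPM in Vehicle 1 and 2 and 113 and 109 CPM in GSK-LSD1 1 and 2, also without overlap and without passing, at 0.074 ± 0.052. BUB1B stood at -0.017 ± 0.060 and TTK, the kinase that starts the spindle checkpoint, at -0.14 ± 0.078.

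Of the 4 genes of anaphase control, the pair that works with the APC/C as coactivator and ubiquitin carrier fell (8.87% of all genes tested). UBE2C, the ubiquitin-conjugating enzyme of the APC/C, had 109 and 109 CPM in Vehicle 1 and 2 and 88.2 and 90.5 CPM in GSK-LSD1 1 and 2, with a log2 fold change of -0.29 ± 0.052 (SE, edgeR adjusted p = 0.00384). CDC20, the coactivator that starts anaphase, had 147 and 148 CPM in Vehicle 1 and 2 and 123 and 126 CPM in GSK-LSD1 1 and 2, with a log2 fold change of -0.24 ± 0.048 (SE, edgeR adjusted p = 0.00621). Both were tight within groups, with no overlap between them. PTTG1 (securin), which holds separase inactive, had 75.1 and 75.7 CPM in Vehicle 1 and 2 and 79.9 and 75.8 CPM in GSK-LSD1 1 and 2, and MAD2L1, the checkpoint protein that restrains CDC20, had 40.0 and 42.8 CPM in Vehicle 1 and 2 and 42.5 and 42.7 CPM in GSK-LSD1 1 and 2. Their log2 fold changes of 0.046 ± 0.058 and 0.040 ± 0.068 lay close to 0, with 95% intervals of -0.081 to 0.17 and -0.11 to 0.19.

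Among the 6 centromere and kinetochore genes, CENPA, the histone H3 variant that marks the centromere, had 27.3 and 22.7 CPM in Vehicle 1 and 2 and 17.4 and 16.9 CPM in GSK-LSD1 1 and 2. All GSK-LSD1 values lay below all Vehicle values, with a log2 fold change of -0.54 ± 0.11 (SE, edgeR adjusted p = 0.00573). This was the largest change of the 45 in size, a fall by 31.3%, with a 95% interval of -0.77 to -0.31. Its size rested on single libraries: it was -0.67 without Vehicle 2, where it passed the 1.5-fold limit, and -0.40 without Vehicle 1. Without GSK-LSD1 1 or without GSK-LSD1 2 it did not pass (edgeR adjusted p = 0.0558 and 0.0578). The other 5 were lower without passing the test, from -0.18 for NUF2 to -0.048 for SPC25, both subunits of the NDC80 complex that grips microtubules. NDC80 had 38.5 and 38.7 CPM in Vehicle 1 and 2 and 39.4 and 33.3 CPM in GSK-LSD1 1 and 2, with overlap, and CENPE had 55.5 and 58.4 CPM in Vehicle 1 and 2 and 54.6 and 46.8 CPM in GSK-LSD1 1 and 2, without.

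All 7 kinesin motors had negative log2 fold changes (51.0% of all genes tested), from -0.20 for KIF14 to -0.10 for KIF18A. Of the 7, 2 fell (8.87% of all genes tested). KIF11, the motor that pushes the spindle poles apart, had 114 and 117 CPM in Vehicle 1 and 2 and 104 and 99.4 CPM in GSK-LSD1 1 and 2, with a log2 fold change of -0.19 ± 0.053 (SE, edgeR adjusted p = 0.0306). KIF20A, a motor of the central spindle, had 170 and 180 CPM in Vehicle 1 and 2 and 157 and 152 CPM in GSK-LSD1 1 and 2, with a log2 fold change of -0.18 ± 0.053 (SE, edgeR adjusted p = 0.0374). Neither motor passed with DESeq2 (adjusted p = 0.0853 for KIF11 and 0.0688 for KIF20A) or with the replicate number as a block (edgeR adjusted p = 0.0528 and 0.0667), so 0 of the 7 passed there. KIF14 lay lower than either, but its adjusted p was 0.0544 by edgeR. None of the 9 spindle and cytokinesis genes passed the test, at an unadjusted p under 0.05 for 2 of them (TPX2 and BIRC5). TPX2 had 363 and 372 CPM in Vehicle 1 and 2 and 340 and 326 CPM in GSK-LSD1 1 and 2, at -0.14 ± 0.047. BIRC5 (survivin), a subunit of the chromosomal passenger complex with AURKB, had 124 and 123 CPM in Vehicle 1 and 2 and 114 and 115 CPM in GSK-LSD1 1 and 2, at -0.11 ± 0.049. ANLN (anillin), which organises the contractile ring, had 200 and 220 CPM in Vehicle 1 and 2 and 222 and 211 CPM in GSK-LSD1 1 and 2, with overlap, at 0.044 ± 0.058.

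MKI67, the proliferation marker that coats mitotic chromosomes, had 406 and 412 CPM in Vehicle 1 and 2 and 340 and 363 CPM in GSK-LSD1 1 and 2, with a log2 fold change of -0.22 ± 0.049 (SE, edgeR adjusted p = 0.0122). TOP2A, the topoisomerase that untangles sister chromatids, had 529 and 564 CPM in Vehicle 1 and 2 and 502 and 499 CPM in GSK-LSD1 1 and 2, without overlap, at -0.13 ± 0.047 and without passing (edgeR adjusted p = 0.0866). Of the 3 transcription regulators, FOXM1, the forkhead factor of G2/M genes, had 143 and 136 CPM in Vehicle 1 and 2 and 113 and 122 CPM in GSK-LSD1 1 and 2, with a log2 fold change of -0.25 ± 0.055 (SE, edgeR adjusted p = 0.0107). MYBL2 had 447 and 441 CPM in Vehicle 1 and 2 and 407 and 409 CPM in GSK-LSD1 1 and 2, without overlap, at -0.12 ± 0.044 (edgeR adjusted p = 0.0819), and LIN9 had 16.8 and 19.2 CPM in Vehicle 1 and 2 and 17.2 and 15.2 CPM in GSK-LSD1 1 and 2, with overlap, at -0.15 ± 0.11.

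**Figure D4:**
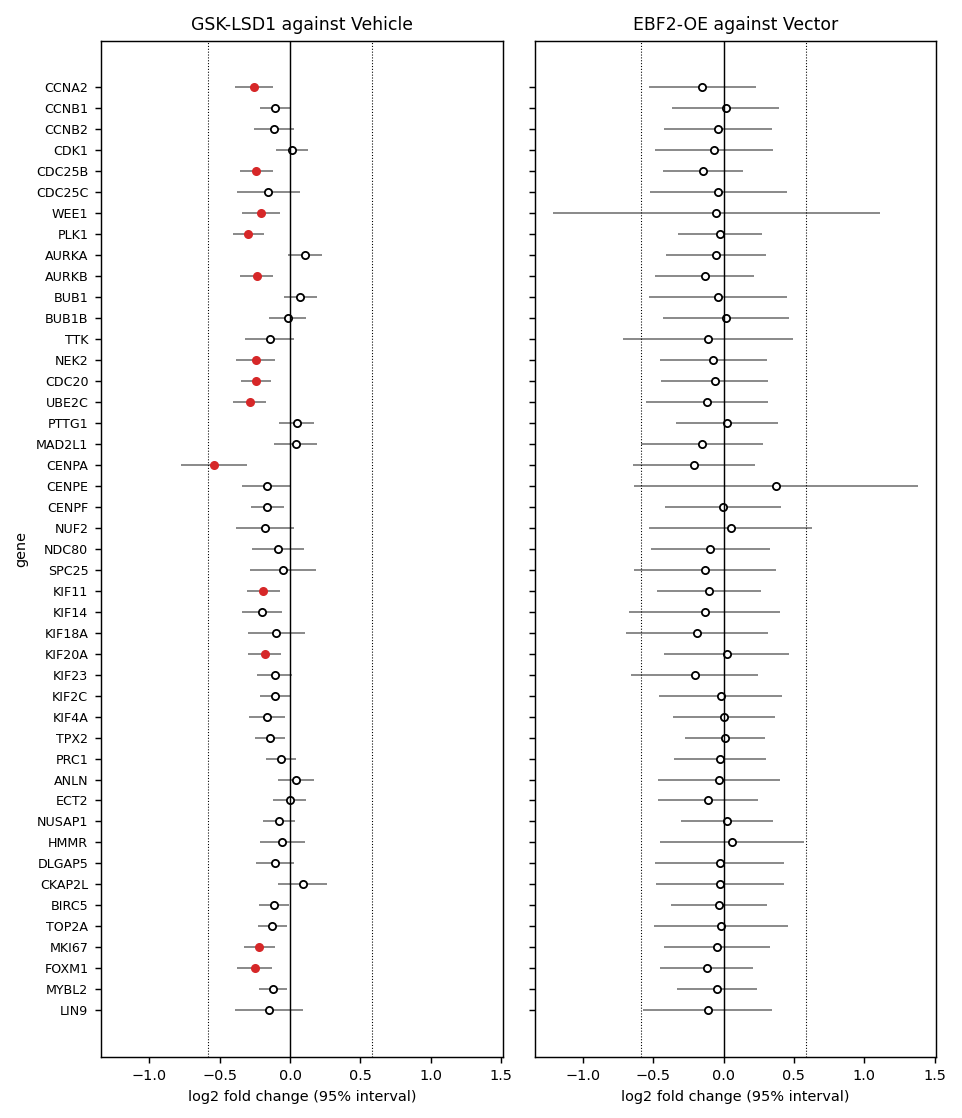
Log2 fold change (point) and 95% interval (line) of each of the 45 genes in GSK-LSD1 against Vehicle (left) and EBF2-OE against Vector (right); filled red points have an edgeR adjusted p under 0.05 and dotted lines mark 1.5-fold. On the left 13 points are red, all below 0, and on the right none is, with wider intervals.

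The 4 libraries of this comparison varied little, with a biological coefficient of variation (the spread beyond counting noise) of 5.87%, against 19.0% in Vector and EBF2-OE. In a single fit of all 8 libraries, at 13.5%, 0 of the 13 passed (edgeR adjusted p from 0.163 to 0.893), all 13 staying below 0. Of all 16558 genes tested in that fit, only 0.598% passed as higher and 0.109% as lower. With DESeq2, 9 of the 13 passed, and WEE1, NEK2, KIF11 and KIF20A did not. With the replicate number as a block 10 passed, and WEE1, KIF11 and KIF20A did not. Without Vehicle 2, WEE1 and KIF20A did not pass. Without GSK-LSD1 1 only CCNA2 and PLK1 of the 13 passed, and without GSK-LSD1 2 CDC25B, PLK1, CDC20, UBE2C, MKI67 and FOXM1 did. The share of all genes that passed as lower was also smaller without either GSK-LSD1 library than in the main fit. GSK-LSD1 1 is the library with many RPPH1 counts, and its part in the result was not tested. The summed TPM of the 7 epithelial markers was 5317 and 5360 in the GSK-LSD1 libraries and 7231 and 7119 in the Vehicle libraries, and 3 of the 5 that could be tested were lower. For 8 stromal, endothelial and immune markers the sum was 72.5 in each GSK-LSD1 library and 65.7 and 68.0 in the Vehicle libraries. Of the 6 of these that could be tested, the macrophage marker CD68 (0.55) and the collagen gene COL1A1 (0.26) were higher and the endothelial marker CDH5 (-0.97) was lower by the edgeR adjusted p, as log2 fold changes. The part of either in the result was not tested. Of the 13 genes, 10 had a promoter window and 5 of those held TTTGAA; of the other 32, 28 had a window and 22 held it. For CCNA2, CDC25C, SPC25, KIF20A and FOXM1, a gene on the opposite strand overlaps the gene and had over 10% of its mean count. The strand setting of the counting is not given in the sources used here, so reads from the overlap may belong to either gene.

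EBF2-OE was set against Vector to ask the same of EBF2. No gene of the 45 was called, at a fold change above 1.5 or by the adjusted p alone, higher or lower, and the share called was 0% of all 15560 genes tested by each of these rules. EBF2 itself was not called in this fit, with a log2 fold change of 10.75 and an edgeR adjusted p of 1.00, so a count of 0 in it says little. DESeq2 called 7 of all genes, EBF2 among them (adjusted p = 9.83e-09), the fit with a replicate block called 5 (EBF2 at 0.000884 by edgeR) and the fit of all 8 libraries 2, without EBF2 (edgeR adjusted p = 0.0962). DESeq2 and both of these fits called 0 of the 45, and 0 had an unadjusted p under 0.05 by edgeR, against 208 of all genes. The log2 fold change was below 0 for 35 of the 45 (77.8%) and for 49.1% of all genes, with medians of -0.046 and 0.0035. Both EBF2-OE libraries lay below both Vector libraries for 2 of the 45 (4.44%; 10.8% of all genes) and above them for 0 (12.1% of all genes). Those 2 were CDC25B, with 175 and 187 CPM in Vector 2 and 3 and 165 and 162 CPM in EBF2-OE 2 and 3, and CENPA, with 18.8 and 20.1 CPM in Vector 2 and 3 and 18.5 and 15.1 CPM in EBF2-OE 2 and 3.

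The direction turned with the library. EBF2-OE 3 against Vector 3 was lower for 44 of the 45 genes, with a median log2 ratio of -0.30. EBF2-OE 2 against Vector 2 was higher for 40 of the 45, with a median of 0.17. Shares over all genes are not given here for these ratios, so the counts are not read as a trait of the 45. The labels do not say whether libraries of the same number belong together. Without EBF2-OE 3 the median of the fitted log2 fold changes was 0.085, with 12 of the 45 below 0, and without EBF2-OE 2 it was -0.25. Without Vector 3, 14 of the 45 were below 0. EBF2-OE 3 is the library with 90100 EBF2 counts and EBF2-OE 2 the one with 5818, and a relation to the EBF2 level was not tested.

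TOP2A had 420 and 424 CPM in Vector 2 and 3 and 498 and 335 CPM in EBF2-OE 2 and 3, so the EBF2-OE values lay on both sides of Vector. The same shape was seen in BUB1, with 126 and 122 CPM in Vector 2 and 3 and 144 and 96.8 CPM in EBF2-OE 2 and 3, and in KIF20A, with 134 and 145 CPM in Vector 2 and 3 and 165 and 118 CPM in EBF2-OE 2 and 3. CCNB1 had 210 and 221 CPM in Vector 2 and 3 and 247 and 189 CPM in EBF2-OE 2 and 3 and CDK1 147 and 166 CPM in Vector 2 and 3 and 171 and 128 CPM in EBF2-OE 2 and 3. In each of these genes EBF2-OE 2 was the highest and EBF2-OE 3 the lowest of the 4 libraries. NDC80 had 32.9 and 37.3 CPM in Vector 2 and 3 and 37.0 and 28.8 CPM in EBF2-OE 2 and 3, and MAD2L1 48.9 and 50.6 CPM in Vector 2 and 3 and 52.0 and 37.7 CPM in EBF2-OE 2 and 3. ANLN had 256 and 250 CPM in Vector 2 and 3 and 288 and 205 CPM in EBF2-OE 2 and 3 and PTTG1 86.1 and 89.2 CPM in Vector 2 and 3 and 99.1 and 79.0 CPM in EBF2-OE 2 and 3. CDC25C, with 17.9 and 18.0 CPM in Vector 2 and 3 and 20.1 and 14.8 CPM in EBF2-OE 2 and 3, overlapped as well.

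Genes with little change included TPX2, with 311 and 323 CPM in Vector 2 and 3 and 334 and 304 CPM in EBF2-OE 2 and 3 and a log2 fold change of 0.0089 ± 0.12 (95% interval -0.27 to 0.29). PLK1 had 171 and 188 CPM in Vector 2 and 3 and 183 and 171 CPM in EBF2-OE 2 and 3, at -0.026 ± 0.12 (95% interval -0.32 to 0.27). MYBL2 had 522 and 584 CPM in Vector 2 and 3 and 551 and 520 CPM in EBF2-OE 2 and 3, at -0.047 ± 0.12. The intervals are for the mean of both EBF2-OE libraries, which had 5818 and 90100 EBF2 counts, and do not bound the change in either library alone. For 36 of the 45 genes the whole 95% interval lay within 1.5-fold of no change, so a change of the group mean beyond that limit lay outside their intervals. The interval did not do so for WEE1 (-1.21 to 1.11) or CENPE (-0.63 to 1.38), whose Vector libraries differed most. It also reached past the limit on the lower side for CENPA, TTK, KIF14, KIF18A, KIF23 and SPC25, and on the upper side for NUF2. CENPE also had the highest log2 fold change, 0.37 ± 0.41, and CENPA the lowest, -0.21 ± 0.18.

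Other genes lay between these. AURKA had 108 and 120 CPM in Vector 2 and 3 and 121 and 99.5 CPM in EBF2-OE 2 and 3, and AURKB 74.5 and 86.2 CPM in Vector 2 and 3 and 79.0 and 67.3 CPM in EBF2-OE 2 and 3. CCNA2 had 82.7 and 71.4 CPM in Vector 2 and 3 and 77.0 and 61.8 CPM in EBF2-OE 2 and 3, and KIF11 104 and 120 CPM in Vector 2 and 3 and 114 and 94.8 CPM in EBF2-OE 2 and 3. CDC20 had 153 and 130 CPM in Vector 2 and 3 and 148 and 122 CPM in EBF2-OE 2 and 3, BIRC5 135 and 149 CPM in Vector 2 and 3 and 151 and 127 CPM in EBF2-OE 2 and 3, MKI67 371 and 463 CPM in Vector 2 and 3 and 437 and 370 CPM in EBF2-OE 2 and 3. In all of these the groups overlapped. UBE2C, which with WEE1 and CENPE was 1 of the 3 genes higher in EBF2-OE 3 than in EBF2-OE 2, had 86.0 and 62.3 CPM in Vector 2 and 3 and 64.8 and 71.6 CPM in EBF2-OE 2 and 3. FOXM1 had 167 and 199 CPM in Vector 2 and 3 and 174 and 163 CPM in EBF2-OE 2 and 3 and LIN9 17.5 and 17.8 CPM in Vector 2 and 3 and 18.4 and 14.3 CPM in EBF2-OE 2 and 3. The remaining genes had log2 fold changes from -0.21 for KIF23, a motor of the central spindle, to 0.059 for HMMR, a spindle pole protein.

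**Figure D5:**
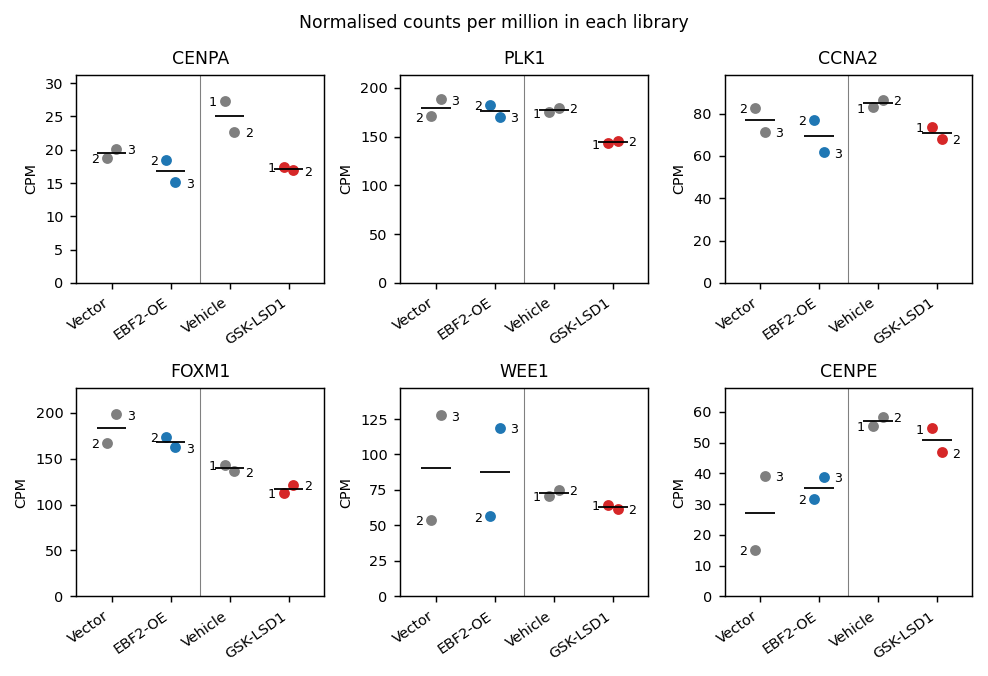
CPM of CENPA, PLK1, CCNA2, FOXM1, WEE1 and CENPE in each library (points, with the library number beside them) and the group mean (bar), scaled within Vector and EBF2-OE on the left and within Vehicle and GSK-LSD1 on the right of the grey line. In the first 4 genes both GSK-LSD1 points lie below both Vehicle points, while WEE1 splits by library number in Vector and EBF2-OE.

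The difference between the EBF2-OE and GSK-LSD1 effects was tested in a fit of all 8 libraries. It passed for 0 of the 45 genes with edgeR, with or without the fold limit, as it did for 0% of the 16558 genes tested by each rule. At an unadjusted p under 0.05 it also passed for 0 of the 45, against 1268 of all genes. PLK1 came nearest, with a difference (EBF2-OE minus GSK-LSD1) of 0.26 ± 0.12 (SE, 95% interval -0.021 to 0.54, edgeR adjusted p = 0.688). For CENPA the difference was 0.32 (95% interval -0.15 to 0.79) and for CENPE 0.52 (95% interval -0.59 to 1.64). The falls with GSK-LSD1 were therefore not shown to differ from the EBF2-OE values.

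Vector and Vehicle, the control groups, were compared to see how far the genes differ without either agent. Again 0 of the 45 passed the 1.5-fold rule with edgeR and 0 with DESeq2, against 5.79% of the 16019 genes tested called higher and 10.2% called lower. With the fold limit and an unadjusted p under 0.05, 1 passed (CENPE). By the adjusted p alone 5 of the 45 rose in Vector (11.1%; 13.6% of all genes) and 2 fell (4.44%; 13.2% of all genes), which is near or under the background. Below 0 lay 22 of the 45 (48.9%; 49.8% of all genes). Both Vector libraries were above both Vehicle libraries for 12 (26.7%; 35.6% of all genes) and below for 17 (37.8%; 35.3% of all genes). FOXM1 had 142 and 135 CPM in Vehicle 1 and 2 and 169 and 202 CPM in Vector 2 and 3, with a log2 fold change of 0.42 ± 0.10 (SE, edgeR adjusted p = 0.0364), the highest value of the 45. MYBL2 had 445 and 438 CPM in Vehicle 1 and 2 and 529 and 594 CPM in Vector 2 and 3, with a log2 fold change of 0.35 ± 0.080 (SE, edgeR adjusted p = 0.0307). Both are regulators of the other genes, and both Vector libraries lay above both Vehicle libraries. ANLN (0.30 ± 0.077), KIF14 (0.32 ± 0.086) and BUB1 (0.27 ± 0.073) also rose. TOP2A had 526 and 560 CPM in Vehicle 1 and 2 and 426 and 431 CPM in Vector 2 and 3, with a log2 fold change of -0.34 ± 0.068 (SE, edgeR adjusted p = 0.0219), and KIF20A had 169 and 179 CPM in Vehicle 1 and 2 and 135 and 147 CPM in Vector 2 and 3, with a log2 fold change of -0.30 ± 0.081 (SE, edgeR adjusted p = 0.0447). CENPE had the lowest log2 fold change, -1.03 ± 0.41, and did not pass (edgeR adjusted p = 0.112). Leaving out 1 library changed which of the 45 passed, and the share of all genes that passed moved widely as well. Counts from such fits are therefore not read as a result about the 45. Without Vector 2 the log2 fold change was 0.84 for WEE1 and -0.78 for UBE2C, and without Vector 3 it was -1.88 for CENPE. The vector, the vehicle and anything else that differed between the control groups cannot be told apart.

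Further genes of the pathway were examined under GSK-LSD1 from lists of 105 mitotic genes outside the 45, all of which were tested. By the adjusted p alone 16 of the 105 fell and 3 rose, with 75 of 105 below 0 and a median log2 fold change of -0.078. As shares, 15.2% of the 105 were lower (8.87% of all genes tested), 2.86% higher (9.86%) and 71.4% below 0 (51.0%). The lists within the 105 hold few genes, and counts such as 4 of 34 (11.8%) or 1 of 17 (5.88%) lie near the 8.87%, so nothing is read from them. In the condensin list, NCAPD2 and SMC4 fell, 2 of 8, with SMC4 at a log2 fold change of -0.26 ± 0.053, adjusted p = 0.00663 by edgeR. Of 12 cohesin and separase genes 2 fell, led by ESPL1 (separase, -0.28 ± 0.049, adjusted p = 0.0036). Of 34 further centromere and kinetochore genes 4 fell, led by CENPH (-0.47 ± 0.11, adjusted p = 0.0133). Of 14 spindle, motor and cytokinesis genes 5 fell, led by KIF15, a motor that works beside KIF11 (-0.46 ± 0.065, adjusted p = 0.000923).

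Other lists were mixed. Of 17 APC/C genes UBE2S, which extends ubiquitin chains, fell (-0.40 ± 0.092, adjusted p = 0.0134) and the subunit ANAPC7 rose (0.21 ± 0.059, adjusted p = 0.0318), with a list median of 0.026. Of 10 genes of CDK1 control PKMYT1, a kinase that inhibits CDK1 beside WEE1, fell most (-0.46 ± 0.053, adjusted p = 0.000293) and CCNF fell with it, while CKS2 (0.31 ± 0.059, adjusted p = 0.00508) and ENSA rose. None of 10 DREAM and MuvB genes passed. Of 40 genes of DNA replication and S phase 13 fell and 0 rose, at a median of -0.10 (32.5% lower, against 8.87% of all genes), and CDT1, a factor that loads the replicative helicase, also passed the 1.5-fold limit (-0.70 ± 0.056, adjusted p = 2.68e-05). Among 7 CDK inhibitors CDKN1A (p21) rose (0.77 ± 0.048, adjusted p = 4.94e-06), 4 fell, and CDKN2A fell most (-1.05 ± 0.14, adjusted p = 0.000762). In EBF2-OE against Vector no gene of these lists passed with edgeR. There 65 of the 105 mitotic genes were below 0 (61.9%, against 49.1% of all genes), with a median of -0.029 (0.0035 for all genes). Of the 40 replication genes 35 were below 0 (87.5%), with a median of -0.12. For the main gene set, described above, the direction turned with the EBF2-OE library. Whether it did so for these lists was not tested, so no effect of EBF2 is read from these counts. In Vector against Vehicle 8 of the 105 were higher and 10 lower by the adjusted p alone (7.62% and 9.52%, against 13.6% and 13.2% of all genes), with a median of 0.035, so the list lay under the background.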

How the data were processed

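RNA-seq was performed by the authors on poly(A)-selected RNA of SW1990 cells in 8 libraries, with paired ends. Reads were aligned to hg38 with HISAT2 at default settings and assigned to genes with HTSeq, whose versions and strand setting are not given in the sources used here. The deposited table gives raw counts per gene and, made by the authors from counts and gene length, TPM. The TPM served only to compare levels between genes, and all tests used the counts.

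Each comparison was fitted on its own 4 libraries with edgeR 4.0.16 in R 4.3.3 (TMM, filterByExpr with a minimum count of 10, two-sided quasi-likelihood test), with Benjamini-Hochberg adjustment over all genes tested. The study tested with DESeq2 (1.42.0 here an alternative). Calls needed more than 1.5-fold and an adjusted p under 0.05, and the adjusted p alone was also read; its counts under the alternatives were added after seeing the data. CPM values were scaled by TMM within each comparison. The SE and 95% interval come from the test statistic. The precision of each gene rests on its counts and on the spread between the libraries of a group. Whether the intervals cover differences between cultures is not known. Libraries of 1 group differed by more than counting noise (chi-square per degree of freedom from 5.34 to 32.9), so they were not copies of each other. Each was entered as 1 replicate. Such a spread may be technical and does not show that the libraries came from separate cultures.

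The 45 genes, the other lists and the alternatives were chosen with earlier results of these data known. All genes were accounted for by role, with values per library for those that passed a rule and for a fixed set of the main genes of each role, and for the largest and smallest changes. Alternatives were other scalings, other filters, 1 fit of all libraries, a block for the replicate number, no adjustment of p and leaving out each library. Promoter windows were searched with Python 3.11.15. Proteins were not analysed here.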

Additional observations from a re-analysis of the deposited data

How the results depend on the processing

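With 2 libraries a group, a fit without 1 library assumes that the lone library varies like the others. By the 1.5-fold rule no member was called with GSK-LSD1 except in the range without 1 library (0 to 1 lower, CENPA without Vehicle 2), and the count without a fold limit was 13. By the adjusted p alone the count of lower members ranged from 3 to 15 without 1 library and was 0 in the fit of all 8 libraries. In that fit of all 8 libraries 0.109% of all genes tested were lower. The median of the members ranged from -0.17 to -0.094. In EBF2-OE against Vector the median ranged from -0.25 to 0.085 and the members below 0 from 12 to 43 without 1 library.

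In Vector against Vehicle, members called higher ranged from 0 to 1 and lower from 0 to 1 without 1 library, with 1 lower without a low-count filter, 1 at an unadjusted p, and 5 higher and 2 lower with no fold limit. By the adjusted p alone, the members higher were 3 with DESeq2, 2 with library totals, 3 without a filter, 3 with at least 10 counts in every library and 2 in the fit of all 8 libraries, and ranged from 0 to 16 without 1 library; the members lower were 4 without a filter and 1 in the fit of all 8 libraries, and ranged from 0 to 13. The share of all genes that passed also moved widely between the fits without 1 library, so their counts are not read as a result about the members. The median of the members ranged from -0.082 to 0.088. The causes were not tested.

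The replicate number as a block left 10 of the 13 lower members with GSK-LSD1 (DESeq2 left 9) and called 0 members with EBF2-OE. The labels do not say what the numbers stand for. Deviations of same-numbered libraries correlated at 0.35 over genes in Vector and EBF2-OE and at -0.0135 in Vehicle and GSK-LSD1, and over the 45 members at 0.635 and -0.298. A correlation over genes leaves out any shift that the genes share. As a set the members moved in opposite directions: 37 of 45 were higher in Vector 3 than in Vector 2, and 42 of 45 were lower in EBF2-OE 3 than in EBF2-OE 2. WEE1 was higher in library 3 of both groups (log2 differences of 1.26 and 1.06), and its part in the 0.635 was not tested. For EBF2-OE, members changed sign in up to 23 of 45 cases (without EBF2-OE 3), and with GSK-LSD1 in up to 5 of 45 (without GSK-LSD1 2), none of them called. The test of the difference between both effects called 0 members under each alternative run.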
